A study of Mus musculus with 10 samples.

Results

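The genes described here were transcripts present at the 2-cell stage of control mouse embryos and nearly absent on either side of it. They were chosen by a rule on control libraries alone, namely at least 5 FPKM (a fragment count scaled by transcript length and library size) in both 2-cell control libraries and at most 1 FPKM in both MII oocyte and both 4-cell control libraries. Of 21437 genes in the table, 61 met these thresholds. Names that begin with Zscan4, Zfp, Obox, Tcstv, Hist, Fbx, Usp, Rp, Mrp or Eif were then dropped, which removed 5 genes (Obox4-ps27, Obox4-ps3, Usp17la, Usp17lc and Zfp353-ps) and left 56, called transient 2-cell genes below. The letters were matched by case, so 2 clone names that begin with RP23 were kept. Because control values selected the genes, control levels are given as a description, and the Ago2 kd libraries, which the rule did not use, are the measurements of interest.

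The data comprised 10 RNA-seq libraries in 5 groups of 2, namely MII oocytes at 16 h, 2-cell control and 2-cell Ago2 kd embryos at 40 h, and 4-cell control and 4-cell Ago2 kd embryos at 55 h after hCG. The label of each sample gives its replicate number, and nothing states whether the 2 libraries of a group came from separate collections, so p-values measure the spread between these libraries only. Embryos came from superovulated F1 females aged 7 weeks mated with F1 males and were cultured in KSOM, whereas per the Methods oocytes came from ICR females of the same age and the labels name ICR throughout, so strain and stage cannot be told apart between oocytes and embryos. Oocytes and control embryos are labelled wild type. For the knockdown (Ago2 kd) the Methods mixed siRNAs against Ago2 with an antibody against the AGO2 protein and injected zygotes. A figure legend of the paper names siRNA or antibodies instead, so whether the sequenced Ago2 kd embryos received both is unclear. A scrambled siRNA is named as the negative control. Whether the sequenced control embryos received it, and how many embryos made a library, is not given in the sources used here. The group is thus a transient knockdown without a genetic deletion, and Ago2 itself was not analysed here.

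The burst of zygotic transcription in the mouse falls in the 2-cell embryo. A part of this first wave, often called the MERVL or DUX programme after an endogenous retrovirus and the homeobox factor DUX that activates it, is switched on briefly and then silenced again. Many genes of this wave sit in young tandem arrays, among them families derived from Alyref, an mRNA export factor, from Eif1a, a translation initiation factor, and from the Tcstv and PRAME genes.

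FPKM summed to between 178681 and 458874 per library, mitochondrial genes took between 2.02% and 13.0% of it, and no read counts were used, so depth is unknown. Among genes above 10 FPKM in 1 replicate, 14.6% were below 0.1 FPKM in 4-cell Ago2 kd replicate 1, against at most 5.81% in any other library, so a lone 0 says little about that gene. Of 7 oocyte markers, 6 were at 1 FPKM or more in both oocyte libraries and Zp1 was at most 0.569 FPKM in every library. Of 5 markers of the 2-cell embryo 4 were in the table. Zfp352 stood at 197 and 290 FPKM in 2-cell control libraries and at 96.5 and 250 FPKM in 2-cell Ago2 kd libraries. Tcstv3 was at 18.0 and 33.9 FPKM in oocytes, at 273 and 306 FPKM in 2-cell control and at the identical 134 FPKM in both 2-cell Ago2 kd libraries. Zscan4d was at 51.3 FPKM in 2-cell control replicate 1 and listed at 0 in the other 9 libraries. Usp17ld was below 1 FPKM in both 2-cell control libraries (0.403 and 0.974 FPKM) and at 0.595 and 13.4 FPKM in 2-cell Ago2 kd libraries. Summed markers of cumulus and granulosa cells reached at most 1.75 FPKM and those of sperm at most 1.78 FPKM, with only 2 of 8 and 2 of 4 of these markers in the table. In both 2-cell Ago2 kd libraries 193 genes carried the same value to the last digit, against at most 1 gene in any other pair of libraries. None of the 56 genes was among them.

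In control embryos the 56 genes had mean 2-cell levels from 5.10 to 215 FPKM, with a median of 17.7 FPKM. In oocytes and 4-cell control embryos 26 of them were listed at 0 in all 4 libraries and 47 were at 0.5 FPKM or less in all 4. The 10 highest were Gm4340, Gm2035, Gm2022, Strn, B020031M17Rik, Gm5698, Xlr3c, Gm6507, Gm2075 and Gm5699. Gm4340 was at 109 and 320 FPKM in the 2-cell control libraries, at 0.201 and 0.346 FPKM in oocytes and at 0 and 0.0833 FPKM in 4-cell control embryos. The 2-cell control replicates differed by a median factor of 1.46 over the 56 genes, and 5 genes (Gm2035, Gm2075, Gm24442, Pramef6 and Strn) differed more than 3-fold. Strn, which encodes the scaffold protein striatin, was the widest, at 221 and 20.1 FPKM. Just inside the lower bound stood Igf1os at 5.01 FPKM, 1700010D01Rik at 5.03 FPKM and 2210019I11Rik at 5.10 FPKM in the lower 2-cell control library, and just outside stood Duxf3 at 4.94 FPKM, Ctf2 at 4.68 FPKM and Olfr450 at 4.42 FPKM. Against the upper bound, the highest value outside the 2-cell stage was 0.948 FPKM for Gm2035 and 0.868 FPKM for Gm14107, and just outside stood Gm8332 barely above 1 FPKM, Gm37724 at 1.07 FPKM and Gm13228 at 1.10 FPKM. Duxf3, the gene of the DUX factor, thus missed the set by a narrow margin in a single library. Pabpc1l, an embryonic poly(A)-binding protein known from oocytes, was at 0.544 and 0.515 FPKM in oocytes and at 20.8 and 13.0 FPKM in 2-cell control embryos.

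**Figure D1:**
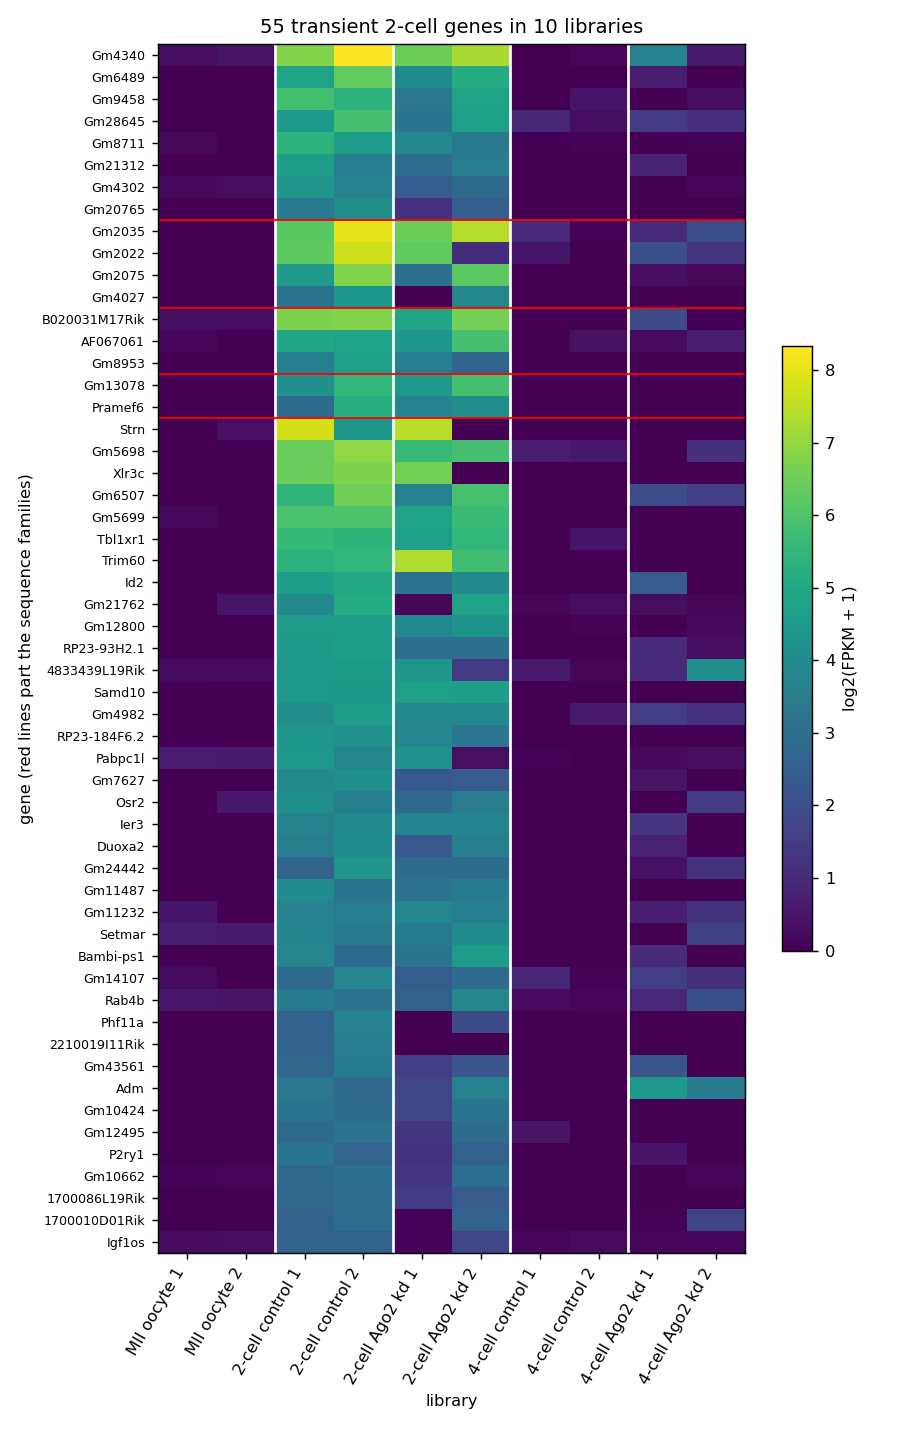
Heat map of log2(FPKM + 1) for the transient 2-cell genes reported here (rows, grouped by sequence family, then by mean 2-cell control level) in the 10 libraries (columns). Oocyte and 4-cell control columns are dark by the rule, the 2-cell Ago2 kd columns carry signal for nearly all rows, and in the 4-cell Ago2 kd columns Adm, 4833439L19Rik and Gm4340 reach 5 FPKM in a library.

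Sequence and position were not used by the rule. By name, 51 of the 56 genes matched GENCODE M21 on GRCm38, and these were short and often duplicated. Their longest transcript had a median of 2 exons and 1258 bases, against 4 exons and 2464 bases over the 8393 matched genes tested. It held 1 or 2 exons for 29 of 51 genes (56.9%), against 33.3% of the genes tested. Protein-coding genes were 35 of 51 (68.6%, against 78.0%) and pseudogenes 11 of 51 (21.6%, against 14.4%). Another gene had a near-identical transcript (at least 95% identity over at least 80% of the length) for 21 of 51 genes (41.2%), against 14.9% of the genes tested. Names of predicted genes, clones or cDNAs made up 36 of the 56 (64.3%, against 21.8%). How reads that match several copies were assigned is not given in the sources used here, so the level of a single copy is uncertain where copies are near-identical.

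The genes without a match by name (2210019I11Rik, Gm5698, Gm5699, RP23-184F6.2 and RP23-93H2.1) were not aligned. They are counted below as in no family, which was not tested for them. Aligned to each other at 80% identity or more over at least 50% of the length, 17 of the 51 matched genes fell into 4 families. The largest held 8 genes related to Alyref, of which Gm4340, Gm20765 and Gm21312 were tandem neighbours at chr10:104177024-104196522 and Gm4302 and Gm8711 lay at chr10:100340836-100357117. Gm4340 matched Alyref over 568 bases at 82.6% identity and its 2 neighbours over the whole transcript at 99.0%. Gm9458, Gm28645 and Gm6489 lay within chr1:30986225-31287640, and RefSeq placed the pseudogenes Gm5698 and Gm5699 beside Gm9458, from chr1:30977246-30998908. Gm2022, Gm2035, Gm2075 and Gm4027 formed a family related to Eif1a on chromosome 12, and Gm2022 matched Eif1a over 434 bases at 94.9% identity. AF067061, B020031M17Rik and Gm8953 were related to Tcstv1, and AF067061 matched it over 1178 bases at 91.9% identity. Gm13078 and Pramef6, members of the PRAME family of leucine-rich repeat proteins, were 165079 bases apart on chromosome 4 and matched at 93.9% identity. Within 500000 bases of another of the 56 genes lay 19 of 51 (37.3%), most of them the family copies just named. The share over all genes tested is not given here.

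RefSeq promoter windows (250 bases before to 50 after the start, GRCm38.p6) matched 24 of the 56 genes. Each was searched on both strands for TATAAA, the TATA box, and for ATTNAATCA, letters within the core that mouse DUX binds. It was also searched for TAATCC, the core of some paired-type homeodomain sites, and for CAAGGTCA, an NR5A2-type site. TAATCC was in 6 of 24 windows (25.0%), against 5.90% of the windows of genes tested and 7.16% of all 27025 windows. Of these 6, 3 belonged to Gm4340, Gm20765 and Gm21312, whose windows differ by at most 1 base of 300, so they are copies of 1 sequence. ATTNAATCA was in 2 of 24 (8.33%, against 0.461% and 0.740%), namely AF067061 and Gm4027, which also held TAATCC. The TATA box letters TATAAA were in 2 of 24 (8.33%, against 7.23% and 14.2%), Duoxa2 and Gm11487, and CAAGGTCA in 0 of 24 (against 0.996% and 1.53%). Matches of different motifs did not overlap, and a match in these windows describes letters, not binding. Repeats in the windows were not masked, and whether a match lies in a repeat was not examined. The windows below are shown because they hold the matches: both with ATTNAATCA, the window shared by the Gm4340 tandem copies, and the TATA box of Duoxa2, a maturation factor of dual oxidase. They lie at chr13:120262845-120263144, chr12:87618659-87618958, chr10:104193792-104194091 and chr2:122298650-122298949, each on the plus strand and written from 5′ to 3′, with matches on either strand in capitals.
AF067061: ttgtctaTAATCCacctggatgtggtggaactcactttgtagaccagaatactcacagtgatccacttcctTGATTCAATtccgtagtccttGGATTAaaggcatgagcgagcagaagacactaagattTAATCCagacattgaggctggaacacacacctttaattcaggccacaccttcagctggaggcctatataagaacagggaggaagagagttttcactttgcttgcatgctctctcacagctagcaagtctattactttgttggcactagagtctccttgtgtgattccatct
Gm4027: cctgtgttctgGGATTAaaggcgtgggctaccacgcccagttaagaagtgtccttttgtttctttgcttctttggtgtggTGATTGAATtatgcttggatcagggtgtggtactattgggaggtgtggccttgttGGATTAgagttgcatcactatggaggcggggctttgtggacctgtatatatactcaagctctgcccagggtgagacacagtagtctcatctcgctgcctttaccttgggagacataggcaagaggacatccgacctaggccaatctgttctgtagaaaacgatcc
Gm4340: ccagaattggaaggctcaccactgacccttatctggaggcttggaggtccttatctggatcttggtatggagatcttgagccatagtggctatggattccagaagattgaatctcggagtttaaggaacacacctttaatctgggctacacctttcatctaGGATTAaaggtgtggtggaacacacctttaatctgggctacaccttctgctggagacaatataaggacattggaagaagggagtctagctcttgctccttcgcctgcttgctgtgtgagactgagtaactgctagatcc
Duoxa2: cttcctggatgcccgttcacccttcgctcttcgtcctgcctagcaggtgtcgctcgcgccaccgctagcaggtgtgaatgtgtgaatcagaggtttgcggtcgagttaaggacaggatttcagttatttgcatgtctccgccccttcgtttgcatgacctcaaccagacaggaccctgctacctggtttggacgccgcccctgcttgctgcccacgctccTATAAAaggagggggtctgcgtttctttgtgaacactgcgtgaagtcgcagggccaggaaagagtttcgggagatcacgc

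In AF067061 the ATTNAATCA match began 179 bases before the start and the TAATCC matches 243, 158 and 121 bases before it. In Gm4027 the ATTNAATCA match began 170 bases and the TAATCC matches 239 and 115 bases before the start. The TATAAA of Duoxa2 began 30 bases before the start and the TAATCC of Gm4340 began 89 bases before it.

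In 2-cell Ago2 kd embryos most of the 56 genes were present, at lower values than in the control libraries that chose them. Their summed FPKM was 1617 and 2307 in the 2-cell control libraries and 1169 and 1329 in the 2-cell Ago2 kd libraries. Both Ago2 kd libraries were at 5 FPKM or more for 33 genes, 1 of both for 16 genes and neither for 7 (1700086L19Rik, 2210019I11Rik, Gm20765, Gm43561, Gm7627, Igf1os and Phf11a). Over all 8726 genes tested, 26.6% were at 5 FPKM or more in both 2-cell Ago2 kd libraries. If a library pooled several embryos, which is not given, fewer embryos that express a gene and less RNA per embryo cannot be told apart.

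The libraries of both 2-cell groups did not overlap for 24 genes, lower in Ago2 kd for 22 (background 14.7% of genes tested) and higher for 2 (background 14.4%). The model called 10 genes lower (background 3%) and 0 higher (background 2.96%) in 2-cell Ago2 kd embryos by limma at an unadjusted p below 0.05. Since values of at least 5 FPKM in the control libraries chose the genes, no change is read from these counts. The median log2 difference, Ago2 kd minus control, was -0.91 against 0 over all genes tested. The value leaned on Ago2 kd replicate 1, since 43 of the 56 genes were higher in replicate 2, and it was -0.34 without replicate 1 and -1.11 without replicate 2.

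The 5 largest of the non-overlapping lower values were those of 2210019I11Rik, Phf11a, Gm20765, Igf1os and Gm7627. For 2210019I11Rik, which RefSeq lists as the long noncoding RNA Plut, control libraries were at 5.10 and 10.9 FPKM and both Ago2 kd libraries were listed at 0. Phf11a, a PHD finger gene, was at 5.10 and 12 FPKM in control libraries and at 0 and 2.77 FPKM in Ago2 kd libraries. Both control means were below the median of the set. Gm20765, the Alyref-related copy beside Gm4340, was at 10.1 and 16.8 FPKM in control and at 1.31 and 4.59 FPKM in Ago2 kd libraries, and Gm4340 itself was at 86.1 and 155 FPKM in Ago2 kd libraries, so 1 of the Ago2 kd libraries lay between its control libraries. Igf1os, the antisense transcript of the growth factor gene Igf1, was at 5.20 and 5.01 FPKM in control and at 0.0689 and 2.30 FPKM in Ago2 kd libraries. Gm7627, a processed pseudogene, was at 14.0 and 17.2 FPKM in control and at 3.92 and 4.39 FPKM in Ago2 kd libraries, with close replicates in both groups.

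Trim60 and Samd10 were the only 2 genes of the set above both control libraries in both 2-cell Ago2 kd libraries. Trim60, a tripartite motif gene, was at 39.5 and 43.2 FPKM in control and at 161 and 53.4 FPKM in Ago2 kd libraries. Annotated exons of Trim60 overlap those of Trim61 on the same strand, so reads of the overlap could belong to either. Samd10, a SAM domain gene, was at 20.8 and 20.1 FPKM in control and at 25.0 and 24 FPKM in Ago2 kd libraries. The gap was wide for Trim60, mainly in replicate 1, and narrow for Samd10.

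Some genes were present in 1 of the 2-cell Ago2 kd libraries and not in the other. Strn was at 173 FPKM in replicate 1 and 0.0447 FPKM in replicate 2, and Xlr3c, an X-linked gene of a multicopy family, was at 92.8 FPKM in replicate 1 and listed at 0 in replicate 2. Gm2022 was at 78.0 and 1.12 FPKM in the same order, and Pabpc1l at 17.4 and 0.257 FPKM. In the other direction, Gm21762 was at 0.0890 and 27.4 FPKM and Gm4027 at 0 and 13.4 FPKM. In all, 20 of the 56 genes were more than 3-fold apart between the 2-cell Ago2 kd libraries, against 5 between the 2-cell control libraries, a count that the rule limits by demanding 5 FPKM in both. The median SD between 2-cell Ago2 kd replicates was 0.730 log2 units for the 56 genes and 0.308 for all genes tested.

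**Figure D2:**
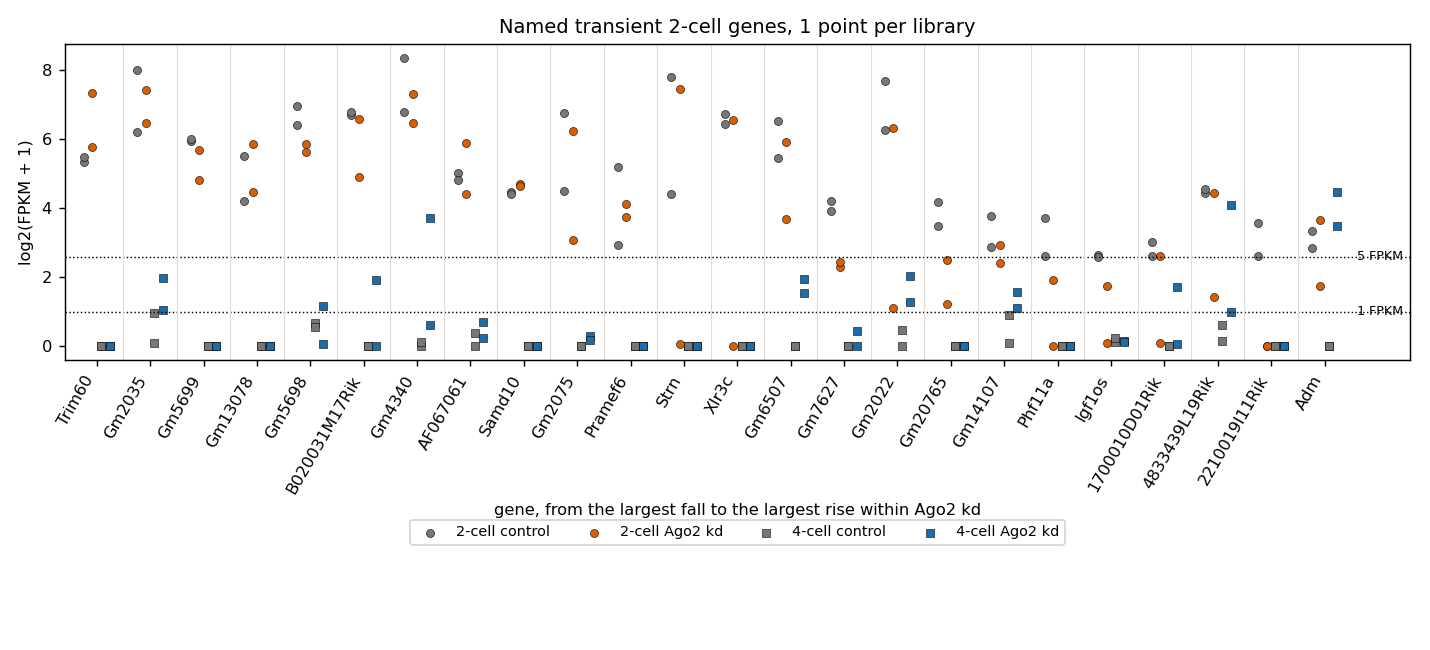
log2(FPKM + 1) of the 24 genes named by rule (horizontal axis, from the largest fall to the largest rise between the 2-cell and 4-cell stage of Ago2 kd embryos), with 1 point per library of 2-cell control, 2-cell Ago2 kd, 4-cell control and 4-cell Ago2 kd embryos and dotted lines at 5 and 1 FPKM. The 4-cell Ago2 kd points lie near 0 for most genes. They overlap the 2-cell Ago2 kd points for Adm, 4833439L19Rik, 1700010D01Rik, 2210019I11Rik, Gm2022, Igf1os, Phf11a and Xlr3c.

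From the 2-cell to the 4-cell stage within Ago2 kd embryos, a contrast the rule did not use, the transcripts of most of the set fell again. By limma, 40 of the 56 genes were lower at the 4-cell stage at a Benjamini-Hochberg adjusted p below 0.05, where 16.5% of all genes tested were. At an unadjusted p below 0.05 the count was 42 (background 20.5%) lower and 0 higher (background 23.8%). The median log2 difference, 4-cell minus 2-cell Ago2 kd, was -2.64 over the 56 genes and 0.18 over all 8726 genes tested, and 53 of the 56 differences were below 0. Both 4-cell libraries lay below both 2-cell libraries for 44 genes (background 29.2%) and overlapped them for 12. Genes of the rule were by choice expressed at the 2-cell stage, and the background includes genes that were not.

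The residual spread of this model also held the control libraries, whose oocyte and 4-cell values the rule kept near 0 for these genes. Their median SD between replicates was 0 in oocytes and 4-cell control, 0.730 in 2-cell Ago2 kd and 0.214 in 4-cell Ago2 kd embryos. The SE and p-values of this model can therefore be too small for them. Values per gene below come from it unless the 4 Ago2 kd libraries alone are named. With the 4 Ago2 kd libraries alone, which leave 2 residual degrees of freedom, 36 genes were lower at an unadjusted p below 0.05 and 19 at an adjusted p below 0.05, and all 19 were among the 40. The share of all genes tested that passed in this fit is not given here, so its counts, here and below, stand without a background. Among the 30 genes with no near-identical transcript of another gene, 20 were lower at an adjusted p below 0.05 in the model of all 10 libraries.

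The largest falls were those of Trim60, Gm2035, Gm5699, Gm13078 and Gm5698. Trim60 was at 161 and 53.4 FPKM at the 2-cell stage and listed at 0 in both 4-cell Ago2 kd libraries, a difference of -6.55 ± 0.53 (SE) on the log2(FPKM + 1) scale (limma adjusted p = 0.00028). Gm2035, of the Eif1a family, went from 86.9 and 169 FPKM to 1.05 and 2.89 FPKM, by -5.44 ± 0.72 (adjusted p = 0.00173). It ended above both 4-cell control libraries, at 0.948 and 0.0671 FPKM. Gm5699 went from 26.9 and 50.1 FPKM to 0 in both libraries, by -5.24 ± 0.40 (adjusted p = 0.000216), and its neighbour Gm5698 from 47.6 and 57.1 FPKM to 0.0452 and 1.23 FPKM, by -5.12 ± 0.46 (adjusted p = 0.000432). Gm13078, a PRAME-type gene that RefSeq calls Pramel24, went from 21 and 56.5 FPKM to 0 in both, by -5.15 ± 0.60 (adjusted p = 0.00114). All 5 also passed at an adjusted p below 0.05 with the 4 Ago2 kd libraries alone. Samd10 fell by 4.67 ± 0.31 on the same scale, from 25.0 and 24 FPKM to 0 in both libraries (adjusted p = 0.000147), with close replicates at both stages.

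Over the sequence families, all 8 genes related to Alyref fell at an adjusted p below 0.05, with a median log2 difference of -3.20, as did all 3 Tcstv-related genes (median -4.68) and both PRAME-type genes (median -4.54). Of the 4 Eif1a-related genes 2 fell, Gm2035 and Gm2075, and the other 2, Gm2022 and Gm4027, had 1 low 2-cell Ago2 kd library. Of the 39 genes in no family, which include the genes that were not aligned, 25 fell, with a median of -2.41. With the 4 Ago2 kd libraries alone, those lower at an adjusted p below 0.05 were 3 of the 8 Alyref-related, 1 of the 4 Eif1a-related, 2 of the 3 Tcstv-related and both PRAME-type genes, and 11 of the 39 in no family. Copies within a family share sequence and are not independent of each other. The Alyref-related genes summed to 309 and 561 FPKM in 2-cell control and to 145 and 271 FPKM in 2-cell Ago2 kd libraries. At the 4-cell stage the sums were 0.852 and 0.811 FPKM with control and 15 and 2.08 FPKM with Ago2 kd. Of the 15 FPKM in 4-cell Ago2 kd replicate 1, Gm4340 gave 12 FPKM. The Eif1a-related genes summed to 177 and 584 FPKM in 2-cell control and to 172 and 257 FPKM in 2-cell Ago2 kd libraries. At the 4-cell stage their sums were 1.33 and 0.0671 FPKM with control and 4.36 and 4.43 FPKM with Ago2 kd. Both 4-cell Ago2 kd sums lay above both 4-cell control sums, by a few FPKM. The PRAME-type sum was 33.2 and 72.9 FPKM in 2-cell Ago2 kd libraries and 0 in both 4-cell groups.

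**Figure D3:**
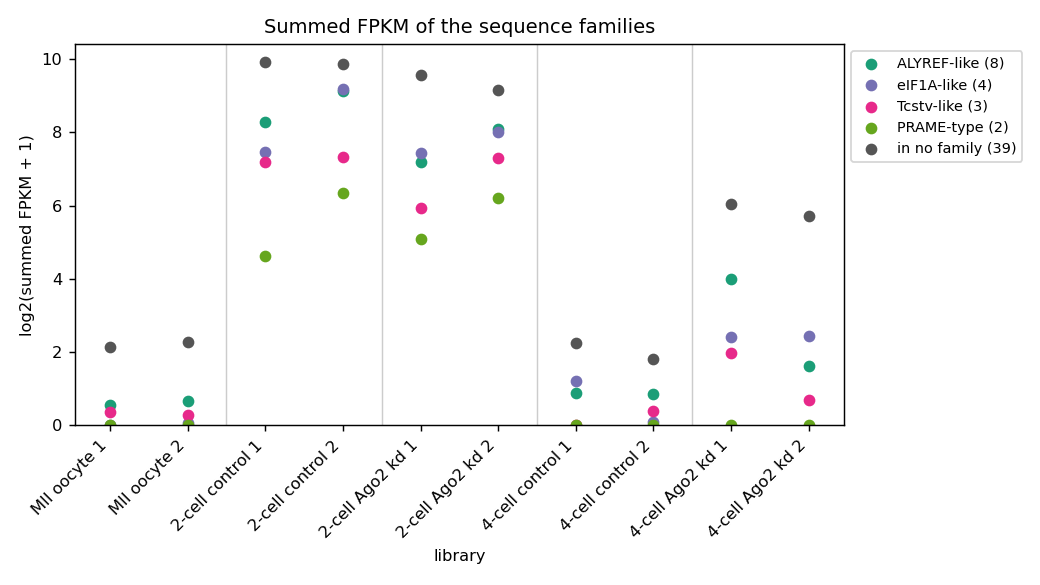
Summed FPKM, as log2(sum + 1), of the 4 sequence families and of the 39 genes in no family (colours, number of genes in brackets) in each of the 10 libraries (horizontal axis). The 39 include the genes that were not aligned. All sums are high in the 2-cell libraries of both groups, and 4-cell Ago2 kd sums lie between the 2-cell and 4-cell control sums, at 15 and 2.08 FPKM for the Alyref-related genes, except those of the PRAME-type genes, which are 0.

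Of 6 genes in no family picked for their known roles, 5 were lower by limma at an adjusted p below 0.05 (background 16.5% of genes tested). With the 4 Ago2 kd libraries alone only Tbl1xr1 passed after adjustment, and Ier3, Osr2 and Tbl1xr1 passed at an unadjusted p below 0.05. Ier3, an immediate early gene, was at 12.7 and 12.6 FPKM in 2-cell Ago2 kd and at 1.39 and 0 FPKM in 4-cell Ago2 kd libraries (-3.14 ± 0.46, limma adjusted p = 0.00256). Osr2, a zinc finger factor of the odd-skipped family, went from 6.18 and 10.2 FPKM to 0 and 1.77 FPKM (difference -2.43 ± 0.56, adjusted p = 0.0151), and Tbl1xr1, a subunit of the NCoR corepressor, from 24.8 and 44.8 FPKM to 0 in both (-5.10 ± 0.41, adjusted p = 0.000281). P2ry1, a receptor for ADP, went from 1.34 and 5.02 FPKM to 0.412 and 0 FPKM (difference -1.66 ± 0.48, adjusted p = 0.0345). Id2, an inhibitor of basic helix-loop-helix factors, was at 7.87 and 14.4 FPKM and then at 4.27 and 0 FPKM. Its difference of -2.35 ± 0.76 lay just outside the adjusted threshold of 0.05. Rab4b, a GTPase of recycling endosomes whose exons overlap those of Gm21983 on the same strand, was at 5.02 and 13.4 FPKM and then at 0.912 and 3.14 FPKM (difference -1.73 ± 0.56), just inside the same threshold. Both 4-cell libraries of these 6 genes lay below both of their 2-cell libraries (background 29.2%). These 6 genes were named for their known roles after their values were seen, so their count is no share of such genes. Adm, Strn and Pabpc1l, also in no family, did not pass by limma (adjusted p = 0.202, 0.238 and 0.206). Duoxa2, Samd10 and Trim60 did.

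**Figure D4:**
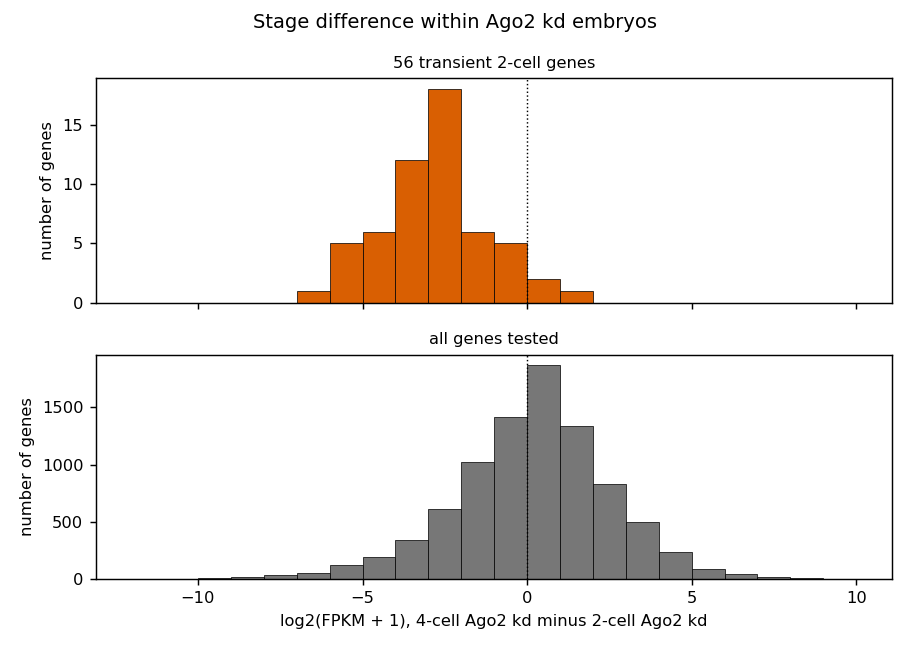
Histogram of the log2(FPKM + 1) difference between 4-cell and 2-cell Ago2 kd embryos (horizontal axis, mean of 2 libraries each, bins of 1 log2 unit) for the 56 transient 2-cell genes (upper panel) and the 8726 genes tested (lower panel), with the number of genes on the vertical axis. The median is -2.64 in the upper and 0.18 in the lower panel, and 53 of the 56 genes lie below 0.

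Among the highest differences within Ago2 kd embryos were those of Adm, 2210019I11Rik, 4833439L19Rik and 1700010D01Rik. Adm, the gene of the vasodilator peptide adrenomedullin, was at 2.34 and 11.6 FPKM in 2-cell and at 20.9 and 10.1 FPKM in 4-cell Ago2 kd libraries. Its difference of 1.26 ± 0.67 did not pass (adjusted p = 0.202). In the control series Adm was at 9.05 and 6.20 FPKM in 2-cell embryos and listed at 0 in both oocyte and both 4-cell libraries. Its 4-cell Ago2 kd libraries thus lay above every control library. 4833439L19Rik, listed in RefSeq also as P33monox and facing exons of Simc1 on the other strand, was at 20.4 and 1.68 FPKM in 2-cell and at 0.983 and 15.9 FPKM in 4-cell Ago2 kd libraries, so its libraries crossed over within both groups. 1700010D01Rik, a long intergenic noncoding RNA, was at 0.0653 and 5.13 FPKM and then at 0.0488 and 2.27 FPKM, and 2210019I11Rik was listed at 0 in all 4 Ago2 kd libraries.

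The set was also described in 4-cell Ago2 kd beside 4-cell control embryos, whose values the rule held near 0. The summed FPKM of the 56 genes was 5.90 and 3.72 in 4-cell control and 87.5 and 58.3 in 4-cell Ago2 kd libraries. Of the Ago2 kd sums, Adm gave 20.9 and 10.1 FPKM and 4833439L19Rik 0.983 and 15.9 FPKM. In both 4-cell Ago2 kd libraries 35 of the 56 genes were at 1 FPKM or less. Values of at most 1 FPKM in control libraries chose the genes, so little but a higher value was possible and no change is read from the counts. Both Ago2 kd libraries lay above both control libraries for 17 genes (background 20.1% of genes tested) and below them for 0 (background 16.9%). By limma at an unadjusted p below 0.05, 4 were higher (background 7.37%) and 0 lower (background 8.07%). The median log2 difference was 0.22, against 0 over all genes tested. Among the largest were Adm, 4833439L19Rik, Gm4340 and Gm6507, of which Gm4340 was at 12 and 0.514 FPKM in Ago2 kd and at 0 and 0.0833 FPKM in control libraries. Gm6507, a long intergenic noncoding RNA, was at 2.87 and 1.89 FPKM in 4-cell Ago2 kd libraries and listed at 0 in both control libraries, after 11.8 and 59.0 FPKM in 2-cell Ago2 kd embryos (-3.05 ± 0.75 between the stages, limma adjusted p = 0.0187). Genes above 1 FPKM in both 4-cell Ago2 kd libraries included Adm, Gm6507, Gm2022, Gm2035, Gm28645, Gm4982 and Gm14107. Gm14107, a processed pseudogene of Hsp90ab1, was at 1.94 and 1.16 FPKM there, against 0.868 and 0.0590 FPKM in 4-cell control embryos.

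The thresholds of the rule were also read in the Ago2 kd libraries. Both 4-cell Ago2 kd libraries were at 1 FPKM or less for 35 of the 56 genes, where 29.9% of all genes tested were, and 17 genes were listed at 0 in both. Both thresholds together held for 18 of the 56 genes, against 5.11% of the genes tested. Of the 33 genes at 5 FPKM or more in both 2-cell Ago2 kd libraries, these 18 were 54.5%, against 19.2% of all 2319 such genes. With the mean of the 2 libraries in place of both, 32 genes held both thresholds. Put on the Ago2 kd libraries in place of the embryo controls, with the oocyte threshold and the names dropped kept, the rule gave 36 genes. They shared 18 with the 56, which is 50% of the 36 and 32.1% of the 56.

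A list of 48 genes of the MERVL and DUX programme, without the families dropped by name, served as a wider reference. Of these 39 were in the table, 35 were tested and 6 were among the 56 genes, namely Gm4340, Gm2022, AF067061, B020031M17Rik, Phf11a and Pramef6. At 5 FPKM or more in both 2-cell control libraries were 30, of which 21 were above 1 FPKM in a 4-cell control library and 5 above 1 FPKM in an oocyte library. Within Ago2 kd embryos 9 of the 35 (25.7%, against 20.5% of genes tested) were lower and 9 higher (against 23.8%) at the 4-cell stage at an unadjusted p below 0.05 by limma, and 8 were lower after adjustment (against 16.5% of genes tested), with a median log2 difference of -0.91. Over the 29 that are not among the 56 genes, 5 were lower, 4 of them after adjustment, and the median was 0.41.

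Of the 6 shared genes, 4 were lower at the 4-cell stage within Ago2 kd embryos at an adjusted p below 0.05. With the 4 Ago2 kd libraries alone AF067061 and Pramef6 passed, while Gm4340 (limma adjusted p = 0.101) and B020031M17Rik (adjusted p = 0.0695) did not. Gm4340 went from 86.1 and 155 FPKM to 12 and 0.514 FPKM (difference -4.71 ± 1.01, limma adjusted p = 0.0111). AF067061 went from 20.2 and 57.8 FPKM to 0.177 and 0.605 FPKM (difference -4.68 ± 0.54, adjusted p = 0.00106), and B020031M17Rik from 28.4 and 94.1 FPKM to 2.78 and 0 FPKM (difference -4.77 ± 0.76, adjusted p = 0.00345). Both are Tcstv-related genes of chromosome 13, and AF067061 carries the DUX core letters shown above. Pramef6 went from 12.2 and 16.4 FPKM to 0 in both libraries (-3.92 ± 0.69, adjusted p = 0.00503). Gm2022, at 78.0 and 1.12 FPKM and then at 3.08 and 1.42 FPKM, did not pass (-2.05 ± 1.51, adjusted p = 0.333), and neither did Phf11a, at 0 and 2.77 FPKM and then at 0 in both (-0.96 ± 0.63, adjusted p = 0.285). For both, the 2-cell Ago2 kd replicates were further apart than the groups.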

How the data were processed

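RNA-seq was done on 10 libraries of MII oocytes and of 2-cell and 4-cell embryos, grouped by their labels. The authors deposited FPKM per gene name, computed with StringTie. The Methods and the submitters' processing notes name CASAVA 1.4 for base calling, Trim Galore, HISAT2 2.1.0 on GRCm38 and HTSeq-count, and strandedness and the handling of reads with several matches are not given in the sources used here. Since FPKM are no counts, no count model was used and no interval for depth can be given. A value of 0 may be a failed estimate, and it is written as listed at 0.

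Values were set to log2(FPKM + 1), which understates changes of low genes. Genes at 1 FPKM or more in at least 2 libraries (8726) were fitted in 1 linear model of 5 group means with limma 3.58.1 (R 4.3.3), with trended empirical Bayes moderation, 5 residual degrees of freedom and Benjamini-Hochberg adjustment over all genes tested. The contrast tested was 4-cell against 2-cell Ago2 kd embryos. Ago2 kd against control shares values with the rule and is given as a description. The procedure was tested on simulated data. With 200 of 8726 genes changed by 3 log2 units between the stages of Ago2 kd embryos, 88% passed at an unadjusted p below 0.05. Of the unchanged genes 5.62% passed at that threshold, and 41% of the changed genes passed after adjustment. These rates are over all genes simulated and need not hold for the transient 2-cell genes, whose spread was uneven between groups. Their median SD between replicates was 0 in oocytes and 4-cell control and 0.73 in 2-cell Ago2 kd embryos.

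The members and lists were chosen with earlier results of these data known. Genes named in full were the 10 highest in 2-cell control libraries, the 5 highest and 5 lowest differences within Ago2 kd, at each stage up to 5 rises and 5 falls without overlap between Ago2 kd and control libraries, those on the 2-cell list, and the 3 genes on each side of each threshold. A gene among the 56 is counted but not reported here. Families and near-identical transcripts were found with BLAST+ 2.17.0 on GENCODE M21 transcripts, and promoters are from RefSeq. Alternatives were another pseudocount, filter, scaling, thresholds, the 4 compared libraries alone, a replicate block and leaving out each library. Leaving out genes with identical 2-cell Ago2 kd values, or genes with near-identical copies, was added after seeing the data. Replicate numbers were not treated as pairs in the main model. Correlations of deviations between same-numbered libraries lay between -0.0930 and 0.0924. They show no strong shared effect and cannot tell whether such libraries were collected together.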

Additional observations from a re-analysis of the deposited data

Results flagged for a closer look

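For 3 of the 56 genes (5.36%, against 3.62% of all genes tested) both 2-cell Ago2 kd libraries lay below both control libraries and both 4-cell Ago2 kd libraries above both control libraries. The difference between the stages was not tested, and at each stage the control side was set by the rule. On the log2(FPKM + 1) scale, 4833439L19Rik differed by -1.57 at the 2-cell and by 2.15 at the 4-cell stage. At the 2-cell stage it was at 20.7 and 22.3 FPKM in control and at 20.4 and 1.68 FPKM in Ago2 kd libraries. At the 4-cell stage it was at 0.524 and 0.115 FPKM in control and at 0.983 and 15.9 FPKM in Ago2 kd libraries. Each of its differences thus rested mainly on 1 Ago2 kd library. Gm4982 differed by -0.49 and 1.04, and RP23-93H2.1 by -1.52 and 0.64. Gm4982 was at 13.3 and 14.2 FPKM in 2-cell Ago2 kd and at 1.83 and 1.29 FPKM in 4-cell Ago2 kd libraries.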

How the results depend on the processing

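The fall within Ago2 kd embryos kept its direction in each alternative run. Its counts, 42 unadjusted and 40 adjusted, were 39 to 47 and 33 to 43 when 1 library was left out, and the median was -3.02 to -2.53. With the 4 Ago2 kd libraries alone 19 passed after adjustment. With thresholds of 10 and 0.5 FPKM, which leave 30 genes, the counts were 26 and 25 and the median -3.42, and over the 30 genes without near-identical copies they were 22 and 20. A pseudocount of 0.1 FPKM moved the median to -4.78. With a replicate block 42 passed unadjusted and 38 adjusted, 10 were lower at the 2-cell stage and 3 higher at the 4-cell stage. Without the 193 genes of identical value the counts were 42 and 39.

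Against control, the 10 genes lower at the 2-cell stage (background 3%) became 6 with a pseudocount of 0.1 FPKM. They became 6 of the 30 genes left by the stricter thresholds and 5 of the 30 without copies. The 0 higher stayed at 0 in these runs. The 4 higher at the 4-cell stage (background 7.37%) became 8 with the 4 libraries compared and 9 with a pseudocount of 0.1 FPKM. With the stricter thresholds 1 of 30 was higher. Shares of all genes tested are not given for the alternative runs of this section. The pseudocount moved the median log2 difference of the 56 genes at the 4-cell stage to 1.11. Leaving out 1 library gave medians of -1.11 to -0.34 and 0 to 0.22 at the 2 stages. The causes were not tested.

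The thresholds held in Ago2 kd libraries for 33, 35 and 18 genes (2-cell, 4-cell and both). These became 13, 17 and 6 of the 30 genes left by the stricter thresholds, and 17, 16 and 7 of the 30 without copies. When 1 library was left out they were 33 to 44, 35 to 43 and 21 to 26. Each count needs both libraries to pass, so leaving 1 out can only keep or raise it and is no check. Both thresholds held for 32 genes by means. The rule gave 30 genes at 10 and 0.5 FPKM, 108 at 2 and 1 FPKM, 145 by means and 36 with Ago2 kd libraries.

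Of 264 recomputed differences of 24 named genes, 234 kept direction and call, 13 were at 0 without a change of call, 7 passed the threshold newly, 4 lost it and 6 reversed. Reversals came when 1 library was left out, with ranges of -1.72 to 0.80 for 1700010D01Rik, -1.93 to 1.16 for 4833439L19Rik, -4.65 to 0.56 for Gm2022 and -1.58 to 0.044 for Igf1os.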
